A study of Rattus norvegicus with 10 samples.

Results

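The Slc25 family of mitochondrial carriers was followed in the jejunum of rats dosed with A-998679, with members chosen by gene symbol. Every probe set whose only gene symbol began with Slc25a and a number was taken, and a gene with several probe sets is shown by the brightest, judged by the mean over the 10 arrays. This gave 37 genes of 13813 genes with a single symbol, on 52 probe sets of 29559. The family was picked because Slc25a42 read low at 200 mg/kg, so that differences between 200 mg/kg and vehicle, and for Slc25a42 also those between 200 and 100 mg/kg, describe the choice and support nothing. All rats were male Sprague Dawley rats of 176 to 200 g per the labels (age not given), without any genetic modification named, and 1 rat gave 1 array. Vehicle rats (3) received 0.2% hydroxypropylmethylcellulose at 10 ml/kg/day by mouth for 5 days. A-998679 was given by mouth for the same 5 days at 30 mg/kg/day (2 rats analysed here), 100 mg/kg/day (3 rats) or 200 mg/kg/day (2 rats). The study's design lists 3 rats at 30 mg/kg, so that 1 of them was not analysed here. The paper's methods give 3 rats for every group, against the 2 rats analysed here at 200 mg/kg. The compound is an allosteric modulator of nicotinic acetylcholine receptors, and the study examined it as an activator of the aryl hydrocarbon receptor (AhR), a ligand-activated transcription factor.

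Most Slc25 proteins are carriers of the inner mitochondrial membrane. Each is built from a repeated pair of helices and moves 1 substrate or exchanges 1 for another, including ADP for ATP, phosphate, citrate, acylcarnitine, amino acids, iron and cofactors. The carriers of the inner membrane are made in the cytosol and reach it through the TIM22 pathway. In the small intestine, mitochondria supply ATP for nutrient uptake by enterocytes, and the ornithine, citrate and aspartate/glutamate carriers also link mitochondrial amino acid metabolism to the cytosol.

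The promoters of Slc25a42 and Slc25a4 are shown because Slc25a42 had the widest range of the family and Slc25a4 the lowest adjusted p in the comparisons that the choice of the family did not use. The sequences are from RefSeq on GRCr8 and run from 250 bases before to 50 bases after the start annotated for each promoter. For Slc25a4 that start is the first base of the gene. For Slc25a42 and some other members it lies further inside the gene (the Slc25a42 gene begins at 19247874). Capitals mark the AhR core letters GCGTG, read on either strand (CACGC on the strand shown).
Slc25a42 promoter (chr16:19247724-19248023, plus strand): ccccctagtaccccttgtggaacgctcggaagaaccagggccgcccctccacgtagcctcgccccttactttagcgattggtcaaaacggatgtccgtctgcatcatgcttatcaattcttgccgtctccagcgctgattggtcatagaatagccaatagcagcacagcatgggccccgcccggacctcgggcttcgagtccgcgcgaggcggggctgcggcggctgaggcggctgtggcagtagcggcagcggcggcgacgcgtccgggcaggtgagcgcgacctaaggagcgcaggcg
Slc25a4 promoter (chr16:52805271-52805570, plus strand): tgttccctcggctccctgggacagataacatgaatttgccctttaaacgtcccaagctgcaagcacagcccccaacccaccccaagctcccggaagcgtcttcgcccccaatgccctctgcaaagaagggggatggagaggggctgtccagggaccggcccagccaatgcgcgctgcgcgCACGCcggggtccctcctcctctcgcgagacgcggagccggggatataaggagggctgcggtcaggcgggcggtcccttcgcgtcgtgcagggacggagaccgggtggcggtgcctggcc
The Slc25a42 window held 0 such cores and the Slc25a4 window held 1, at position -70 from the start. Of the 37 genes, 31 had a promoter in the table (32 promoters), and 17 of these promoters (53.1%) held a core, beside 29.7% of 33469 promoters of the same length. The GC content was 65.0% for Slc25a42 and 67.3% for Slc25a4, against a median of 51.7% over all promoters. It ranged from 42.7% (1 of the Slc25a48 promoters) to 77.7% (Slc25a39) in the family. The shares with a core were not matched for GC content. A match of these letters is a description and not a binding site.

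Signals are log2 intensities, so that a difference of 1 is a doubling, and levels are compared between arrays and not between probe sets. Array medians lay between 5.86 and 5.90. Enterocyte markers were present, with 10 of 12 listed genes on the array. All 10 were read in every rat, between 9.12 (Slc5a1, the glucose transporter) and 13.4 (Fabp1, a fatty acid-binding protein). The score of the ileum list (4 of 5 genes tested), the mean difference from the vehicle mean, ran from -1.02 (30 mg/kg rat 1) to 0.54 (vehicle rat 1). In that list Fabp6 ran from 2.05 (200 mg/kg rat 2) to 7.89 (vehicle rat 1), and Slc51a only from 10.36 to 10.82. Whether the arrays sampled the same segment of gut was not tested. Vehicle rat 1 stood apart from the other vehicle rats in its summed marker levels. The smooth muscle score, the mean difference of 12 of 12 muscle genes from the vehicle mean, was -0.53 there against 0.25 and 0.28, and the liver-type score (10 of 14 genes tested) was 1.14 against -0.27 and -0.87. Rat 1 had the highest liver-type score in each dosed group too. It was -0.38 against -1.03 at 30 mg/kg, and 0.38 against -1.28 and -1.18 at 100 mg/kg. At 200 mg/kg it was 0.38 against -1.35. Whether this score follows the rat number was not tested. Some results that rest on vehicle rat 1 are given with and without it, and others only with it. In whole jejunum, fewer cells of a type and less RNA per cell cannot be told apart.

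Of the 37 genes, 32 passed the filter on low values (a mean over all arrays of at least 4.89) and 5 did not. The tested gene nearest the filter was Slc25a41, with a mean of 5.03, and the nearest gene below it was Slc25a38, with a mean of 4.57. The median range of the tested genes over the 10 arrays was 0.77, beside 0.89 for all probe sets tested, and 12 of 32 genes (37.5%) had a range over 1, beside 42.1%. Slc25a42 had the widest range (2.88), then Slc25a23 (2.76) and Slc25a4 (1.65), and the citrate carrier Slc25a1 had the narrowest (0.27).

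**Figure D1:**
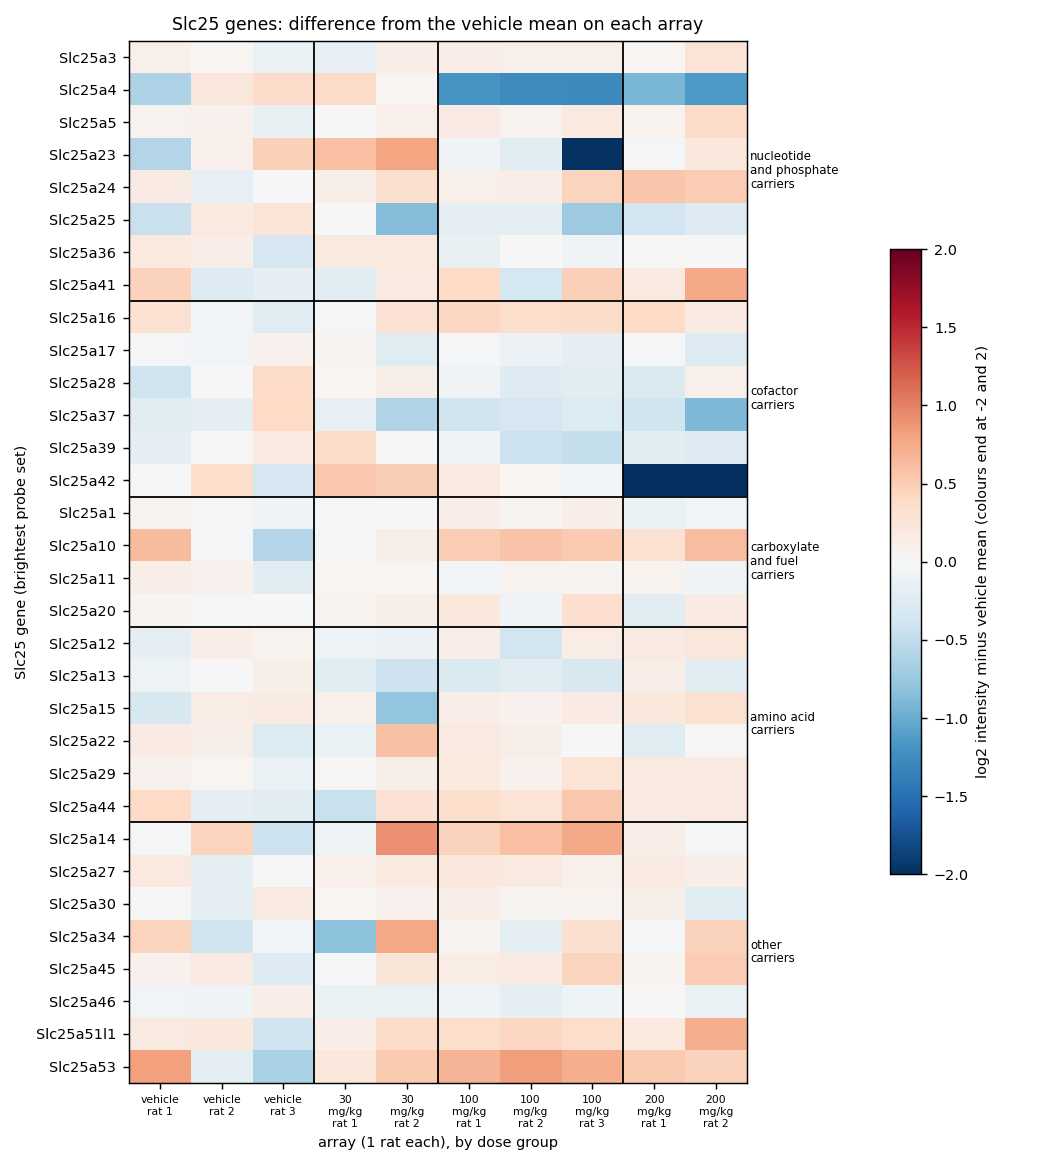
Difference of each tested Slc25 gene from its vehicle mean (colour, log2 units) on each of the 10 arrays (columns, by dose group), with genes grouped by what they carry. Slc25a42 was low on both 200 mg/kg arrays, Slc25a4 on all 100 and 200 mg/kg arrays, and Slc25a23 on 1 of 3 arrays at 100 mg/kg.

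Slc25a42, which brings coenzyme A into the mitochondrial matrix in exchange for adenine nucleotides, lies on chromosome 16 (19247874 to 19286598, GRCr8). It read 6.23, 6.58 and 5.89 in vehicle rats, 6.77 and 6.73 at 30 mg/kg, 6.41, 6.28 and 6.18 after 100 mg/kg, and 4.22 and 3.90 at 200 mg/kg. Both 200 mg/kg arrays lay below all 8 others, and both 30 mg/kg arrays lay above all 3 vehicle arrays. The mean was 6.23 ± 0.34 (SD, n = 3) in vehicle rats and 4.06 ± 0.23 (SD, n = 2) at 200 mg/kg, a difference of -2.17 or 4.52-fold, which is the value the family was picked for. Against 100 mg/kg the 200 mg/kg arrays differed by -2.23, from the same 200 mg/kg arrays. Both levels at 200 mg/kg lay under 4.89, the mean below which probe sets were left out as dim. With 16 intensity units added before the log, the difference from vehicle was -1.48.

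The doses below 200 mg/kg do not share the 200 mg/kg arrays. Slc25a42 was 0.52 ± 0.21 (SE) above vehicle at 30 mg/kg, which did not pass (limma, adjusted p = 1). At 100 mg/kg it was 0.06 ± 0.19 (SE) above vehicle (adjusted p = 0.884), with arrays that overlapped those of vehicle, and this difference turned to -0.11 without vehicle rat 3 and to -0.0036 without 100 mg/kg rat 1. Between 100 and 30 mg/kg the difference was -0.46 ± 0.21 (SE), with groups that did not overlap (adjusted p = 0.266). Beside the low Slc25a42 values at 200 mg/kg, the enterocyte score was -0.17 and 0.47, the liver-type score 0.38 and -1.35, and the smooth muscle score -0.50 and -0.84 in rats 1 and 2. The score of enteric neurons and glia was -1.07 and -0.72 and that of adipose genes -0.88 and -0.70 in the same rats, and the part of these scores in the Slc25a42 values was not tested.

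**Figure D2:**
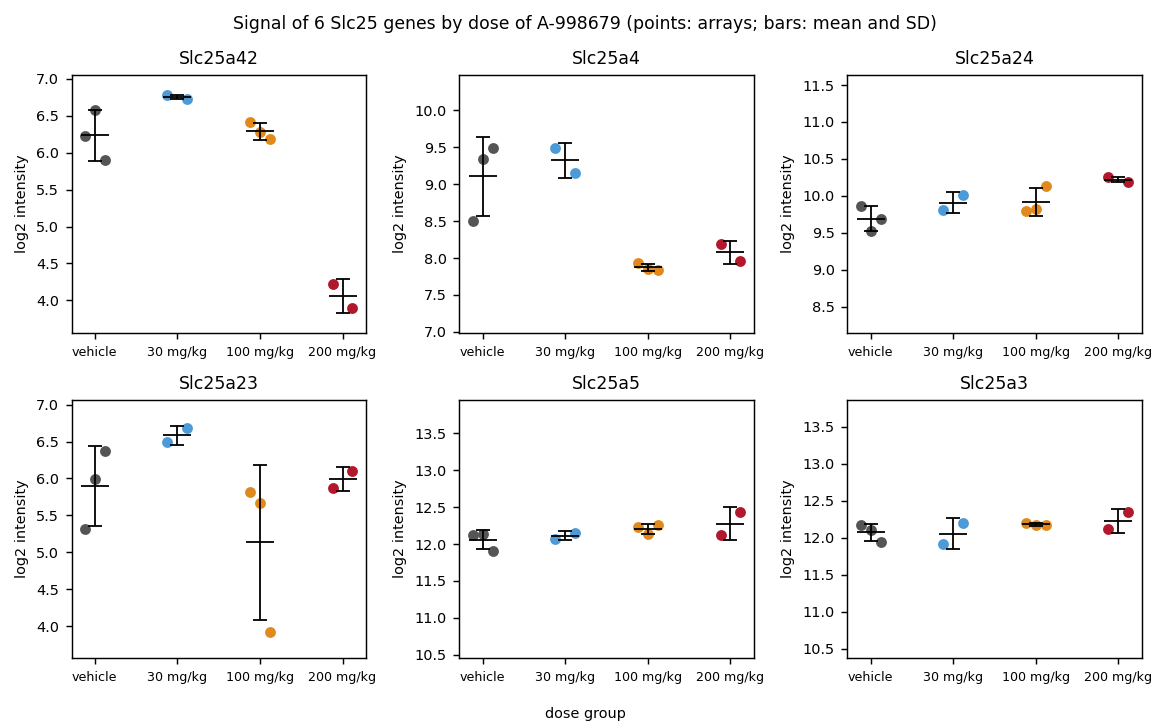
Log2 intensity of 6 Slc25 genes on each array by dose group, with points for arrays and bars for the mean and SD, and with the same span on each vertical axis. Slc25a42 reads 4.22 and 3.90 at 200 mg/kg against 5.89 or more elsewhere, and Slc25a4 lies at 8.19 or less on all 100 and 200 mg/kg arrays, while Slc25a5 and Slc25a3 stay between 11.91 and 12.44.

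The ADP/ATP carriers exchange matrix ATP for cytosolic ADP. Slc25a4, the isoform best known from heart and skeletal muscle, lies on chromosome 16 (52805521 to 52809316, GRCr8). It read 8.50, 9.34 and 9.49 in vehicle rats, 9.49 and 9.15 at 30 mg/kg, 7.93, 7.86 and 7.84 after 100 mg/kg, and 8.19 and 7.96 at 200 mg/kg. All 5 arrays at 100 and 200 mg/kg lay below all 5 arrays of vehicle and 30 mg/kg, and vehicle rat 1 was the lowest of those 5. At 100 mg/kg the difference from vehicle was -1.23 ± 0.25 (SE), a 2.35-fold lower signal, and did not pass over all probe sets (limma, adjusted p = 0.121). Without vehicle rat 1 it was -1.54 and passed (adjusted p = 0.0127), in a fit in which 12.5% of all probe sets passed. Across the 19 settings run, the adjusted p ranged from 0.0011 to 0.376 and the difference kept its sign. The lowest value came with array weights, a setting in which 6968 of 17708 probe sets passed. The comparison with 30 mg/kg shares no array with vehicle or 200 mg/kg and gave -1.45 ± 0.28 (SE) or 2.73-fold (adjusted p = 0.0633). It passed when vehicle rat 1 or vehicle rat 3 was left out of the shared estimate of spread (adjusted p = 0.00922 and 0.0444), where 5.73% and 1.61% of all probe sets passed. At 30 mg/kg the difference from vehicle was 0.21, or -0.092 without vehicle rat 1. At 200 mg/kg it was -1.03, or -1.34 without vehicle rat 1.

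Some marker lists differed between the arrays on which Slc25a4 was low and the others, and some did not. The smooth muscle score was -0.53, 0.25 and 0.28 in vehicle rats, 0.41 and 0.07 at 30 mg/kg, between -0.94 and -0.91 after 100 mg/kg, and -0.50 and -0.84 at 200 mg/kg. Against vehicle at 100 mg/kg, 12 of 12 smooth muscle genes lay below vehicle in the mean, 11 of 12 with groups that did not overlap (13.3% of all probe sets were apart in this way), and 0 passed in limma, with 12 at an unadjusted p of up to 0.05 (18.0% of all probe sets). The score of enteric neurons and glia (6 of 8 genes tested) lay between -1.26 and -0.95 at 100 mg/kg, against -0.41 to 0.29 in vehicle rats. The enterocyte score lay between 0.16 and 0.35 at 100 mg/kg, against -0.25 to 0.18. The skeletal and heart muscle score (4 of 8 genes tested) lay between -0.42 and -0.18 at 100 mg/kg, against -0.27 to 0.18 in vehicle rats. The adipose score (6 of 8 genes tested) lay between -1.49 and -0.64 at 100 mg/kg against -0.30 to 0.52 in vehicle rats. Of these 6 genes, 5 lay below vehicle in the mean and 1 above. The immune cell score (8 of 8) lay between 0.53 and 1.02 against -0.20 to 0.26. Its genes did not move alike, with 7 above vehicle in the mean, from 0.07 (Ms4a1) to 2.53 (Mcpt1), and 1 below (Cd3g, -0.72). At 200 mg/kg, where Slc25a4 was also low, the immune cell score was -0.31 and -0.48 in rats 1 and 2. The enterocyte score was -0.17 and 0.47 there, and the skeletal and heart muscle score -0.53 and 0.075. The enteric neuron and glia score (-1.07 and -0.72) and the adipose score (-0.88 and -0.70) lay below those of all vehicle and 30 mg/kg arrays. The part of these marker differences in the Slc25a4 values was not tested.

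**Figure D3:**
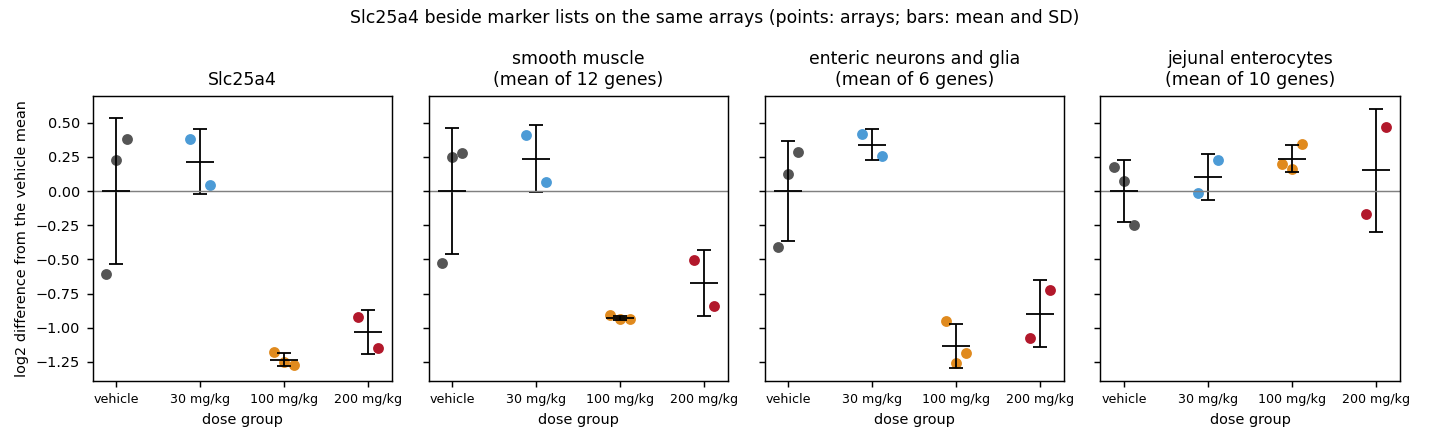
Difference from the vehicle mean (log2) of Slc25a4 and of the mean of 3 marker lists on each array, by dose group (points are arrays, bars the mean and SD). Slc25a4 and the enteric neuron and glia genes lie lowest on the 100 and 200 mg/kg arrays. The smooth muscle score of vehicle rat 1 (-0.53) lies just below that of 200 mg/kg rat 1 (-0.50).

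Slc25a5, the ADP/ATP carrier of most dividing and epithelial tissues, read 12.12, 12.14 and 11.91 in vehicle rats, 12.07 and 12.16 at 30 mg/kg, 12.23, 12.13 and 12.26 after 100 mg/kg, and 12.12 and 12.44 at 200 mg/kg. It differed from vehicle by 0.15 ± 0.13 (SE) at 100 mg/kg (adjusted p = 0.552). The phosphate carrier Slc25a3, which supplies phosphate for ATP synthesis, read 12.17, 12.11 and 11.94 in vehicle rats, 11.91 and 12.20 at 30 mg/kg, 12.21, 12.17 and 12.17 after 100 mg/kg, and 12.12 and 12.34 at 200 mg/kg. Groups overlapped for both genes at every dose against vehicle. Their mean differences at 100 mg/kg were above 0 where that of Slc25a4 was below it, and the difference between genes was not tested.

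The ATP-Mg/phosphate carriers adjust the matrix pool of adenine nucleotides, and those other than Slc25a41 respond to cytosolic calcium. Slc25a24 read 9.86, 9.52 and 9.69 in vehicle rats, 9.81 and 10.01 at 30 mg/kg, 9.79, 9.82 and 10.14 after 100 mg/kg, and 10.25 and 10.19 at 200 mg/kg. Both 200 mg/kg arrays lay above the 3 vehicle arrays, by 0.53 in the mean, and above the 3 arrays at 100 mg/kg, by 0.30 ± 0.17 (SE) in the mean (adjusted p = 0.890). Slc25a23 read 5.31, 5.99 and 6.38 in vehicle rats, 6.49 and 6.68 at 30 mg/kg, 5.82, 5.67 and 3.92 after 100 mg/kg, and 5.87 and 6.10 at 200 mg/kg. The low value came from 100 mg/kg rat 3 alone. The difference of Slc25a23 between 100 and 30 mg/kg was -1.45 ± 0.53 (SE, adjusted p = 0.202), and -0.84 without that rat. Its difference from vehicle at 30 mg/kg was 0.69 ± 0.53 (SE, adjusted p = 1), and between 200 and 100 mg/kg it was 0.85, or 0.25 without 100 mg/kg rat 3. Slc25a25 ranged from 5.68 to 6.80 and Slc25a41 from 4.54 to 5.64, with groups that overlapped in each comparison. The pyrimidine nucleotide carrier Slc25a36 read 9.41, 9.36 and 8.89 in vehicle rats, 9.42 and 9.42 at 30 mg/kg, 9.07, 9.21 and 9.15 after 100 mg/kg, and 9.25 and 9.21 at 200 mg/kg. Its 30 mg/kg arrays lay just above those of vehicle, by 0.20 ± 0.17 (SE) in the mean (adjusted p = 1), or 0.032 without vehicle rat 3.

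Among the other cofactor and metal carriers, Slc25a16, linked to coenzyme A by work in yeast, read 7.39, 7.04 and 6.86 in vehicle rats, 7.06 and 7.38 at 30 mg/kg, 7.51, 7.44 and 7.47 after 100 mg/kg, and 7.50 and 7.26 at 200 mg/kg. All 3 arrays at 100 mg/kg lay above all vehicle and 30 mg/kg arrays, with a difference of 0.37 ± 0.17 (SE) from vehicle (adjusted p = 0.280). Slc25a39, which imports glutathione, read 9.60, 9.82 and 9.95 in vehicle rats, 10.15 and 9.79 at 30 mg/kg, 9.72, 9.36 and 9.31 after 100 mg/kg, and 9.57 and 9.53 at 200 mg/kg. Slc25a39 differed between 100 and 30 mg/kg by -0.51 ± 0.19 (SE, adjusted p = 0.201), or -0.32 without 30 mg/kg rat 1. The iron carrier Slc25a37 (mitoferrin-1) read 6.16, 6.20 and 6.79 in vehicle rats, 6.23 and 5.79 at 30 mg/kg, 5.99, 6.05 and 6.12 after 100 mg/kg, and 5.98 and 5.48 at 200 mg/kg. It lay below vehicle on all arrays at 100 mg/kg (-0.33 ± 0.22 SE, adjusted p = 0.416, or -0.13 without vehicle rat 3) and at 200 mg/kg (-0.65). The other iron carrier Slc25a28 (mitoferrin-2) ranged from 8.10 to 8.88 and Slc25a17, a peroxisomal carrier of cofactors, from 7.38 to 7.73. Both overlapped with vehicle at every dose.

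Carboxylate and fuel carriers showed small differences apart from Slc25a10. Slc25a1, which exports citrate for lipid synthesis, read 9.56, 9.52 and 9.41 in vehicle rats, 9.46 and 9.51 at 30 mg/kg, 9.63, 9.56 and 9.63 after 100 mg/kg, and 9.36 and 9.44 at 200 mg/kg. Its 200 mg/kg arrays lay below those of 100 mg/kg in the mean (log2 difference -0.21 ± 0.12 SE, adjusted p = 0.908). Slc25a20, which brings acylcarnitines in for fatty acid oxidation, read 8.12, 8.03 and 8.06 in vehicle rats, 8.14 and 8.19 at 30 mg/kg, 8.29, 7.99 and 8.40 after 100 mg/kg, and 7.86 and 8.23 at 200 mg/kg. Against vehicle it differed by 0.09 ± 0.17 (SE) at the lowest dose and 0.16 ± 0.15 (SE) at 100 mg/kg (adjusted p = 1 and 0.576). The dicarboxylate carrier Slc25a10 read 10.13, 9.45 and 8.90 in vehicle rats, 9.46 and 9.62 at 30 mg/kg, 10.00, 10.07 and 10.02 after 100 mg/kg, and 9.81 and 10.11 at 200 mg/kg. Its difference from vehicle at 100 mg/kg was 0.53 ± 0.27 (SE, adjusted p = 0.321). Without vehicle rat 1, the highest of the 10 arrays, the difference was 0.85 and passed (adjusted p = 0.0313), where 12.5% of all probe sets passed. The vehicle rats alone spanned its whole range of 1.23, and its 100 mg/kg arrays lay above those of 30 mg/kg by 0.49 ± 0.30 (SE, adjusted p = 0.401). Slc25a11, the oxoglutarate/malate carrier, ranged from 9.42 to 9.78.

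Of the amino acid carriers, Slc25a13 (citrin), an aspartate/glutamate carrier of the malate-aspartate shuttle, read 7.21, 7.30 and 7.42 in vehicle rats, 7.10 and 6.91 at 30 mg/kg, 7.02, 7.09 and 6.99 after 100 mg/kg, and 7.45 and 7.08 at 200 mg/kg. It lay below all vehicle arrays at 30 mg/kg (-0.31 ± 0.15 SE, adjusted p = 1) and at 100 mg/kg (-0.28 ± 0.14 SE, adjusted p = 0.311), comparisons that share the vehicle arrays. The related carrier Slc25a12 (aralar) read 6.49, 6.82 and 6.75 in vehicle rats, 6.59 and 6.57 at 30 mg/kg, 6.81, 6.31 and 6.84 after 100 mg/kg, and 6.86 and 6.91 at 200 mg/kg. Its 200 mg/kg arrays lay above those of vehicle by 0.20 and of 100 mg/kg by 0.23 ± 0.19 (SE, adjusted p = 0.963), the latter 0.058 without 100 mg/kg rat 2. Slc25a29, which carries basic amino acids, read 7.08, 7.03 and 6.86 in vehicle rats, 7.01 and 7.10 at 30 mg/kg, 7.18, 7.08 and 7.27 after 100 mg/kg, and 7.16 and 7.17 at 200 mg/kg. Both values at 200 mg/kg exceeded all vehicle values, with a mean difference of 0.17, or 0.11 without vehicle rat 3. The glutamate carrier Slc25a22 ranged from 8.32 to 9.17 and Slc25a44, a carrier of branched-chain amino acids, from 6.68 to 7.67.

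The ornithine carrier Slc25a15, which serves the urea cycle and intestinal citrulline synthesis, had 5 probe sets, all tested, that did not move alike. The brightest (1393342_at) read 9.23, 9.70 and 9.71 in vehicle rats, 9.64 and 8.76 at 30 mg/kg, 9.68, 9.63 and 9.72 after 100 mg/kg, and 9.76 and 9.85 at 200 mg/kg. A dimmer one (1397647_at) read 7.56, 6.87 and 5.96 in vehicle rats, 6.59 and 6.16 at 30 mg/kg, 8.23, 7.89 and 8.37 after 100 mg/kg, and 7.89 and 8.21 at 200 mg/kg. For this probe set, and for 1393947_at, every array at 100 and 200 mg/kg lay above every array of vehicle and 30 mg/kg, while 1374800_at was lower on all of those arrays (9.22 to 9.38 against 9.45 to 9.58). Between 100 and 30 mg/kg the log2 difference was 1.79 ± 0.40 (SE) for 1397647_at (adjusted p = 0.0824), 0.96 ± 0.20 (SE) for 1393947_at (adjusted p = 0.0715), 0.47 for the brightest and -0.21 for 1374800_at. Against vehicle the differences of 1397647_at and 1393947_at at 100 mg/kg were 1.37 and 0.72 (adjusted p = 0.168 and 0.154). Which of the 5 follows the Slc25a15 transcript was not tested. Over the 7 genes with 2 or more tested probe sets, the probe sets of a gene had opposite signs against vehicle in 2 genes (30 mg/kg), 5 genes (100 mg/kg) and 5 genes (200 mg/kg), and in 3 between 100 and 30 mg/kg. For Slc25a36 the second probe set (1392789_at) differed from vehicle by 1.00 ± 0.42 (SE, adjusted p = 0.266) at 100 mg/kg, against -0.08 for the brightest. For Slc25a46 the second (1386088_at) differed by 0.55 ± 0.23 (SE, adjusted p = 0.261), against -0.12. The second probe sets of Slc25a10 and Slc25a13 also had the opposite sign at 100 mg/kg, with -0.45 against 0.53 and 0.22 against -0.28.

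**Figure D4:**
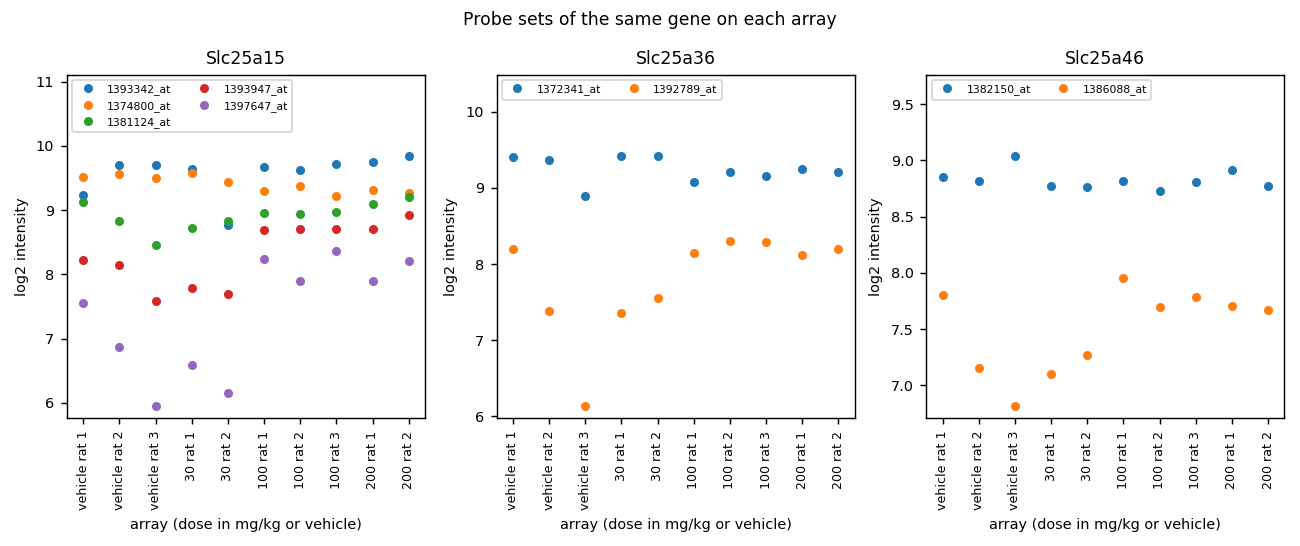
Log2 intensity on each array of the probe sets of Slc25a15, Slc25a36 and Slc25a46 (colours, named in each panel), with arrays on the horizontal axis by dose group. In Slc25a15, 1397647_at lies at 7.89 or more at 100 and 200 mg/kg against 7.56 or less in the other groups, while 1374800_at lies between 9.22 and 9.58 throughout.

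The remaining carriers have less settled substrates. Slc25a14, related to the uncoupling proteins, read 4.93, 5.39 and 4.52 in vehicle rats, 4.86 and 5.86 at 30 mg/kg, 5.41, 5.55 and 5.70 after 100 mg/kg, and 5.09 and 4.91 at 200 mg/kg. It was above vehicle on all arrays at 100 mg/kg (0.61 ± 0.29 SE, adjusted p = 0.298, or 0.39 without vehicle rat 3) and not at 200 mg/kg. Slc25a53 read 5.53, 4.53 and 4.06 in vehicle rats, 4.92 and 5.22 at 30 mg/kg, 5.39, 5.54 and 5.43 after 100 mg/kg, and 5.22 and 5.17 at 200 mg/kg. The difference from vehicle at 100 mg/kg was 0.75 ± 0.32 (SE, adjusted p = 0.268). Without vehicle rat 1, which read as high as the dosed rats, the difference was 1.16 (adjusted p = 0.0183). In that fit 12.5% of all probe sets passed. Slc25a51l1, which resembles the NAD carrier gene Slc25a51, read 7.52, 7.57 and 6.95 in vehicle rats, 7.48 and 7.71 at 30 mg/kg, 7.70, 7.76 and 7.69 after 100 mg/kg, and 7.54 and 8.07 at 200 mg/kg. Slc25a51 itself is named only on 2 probe sets that the annotation assigns to more than 1 gene identifier and was not used. Slc25a46, an outer membrane protein involved in mitochondrial dynamics, read 8.86, 8.82 and 9.04 in vehicle rats, 8.78 and 8.77 at 30 mg/kg, 8.82, 8.73 and 8.81 after 100 mg/kg, and 8.92 and 8.77 at 200 mg/kg. Its 30 mg/kg arrays lay below those of vehicle, with a log2 difference of -0.13 ± 0.13 (SE, adjusted p = 1), or -0.066 without vehicle rat 3. Slc25a27 and Slc25a30, also related to the uncoupling proteins, ranged from 5.32 to 5.72 and from 6.22 to 6.65. Slc25a34 ranged from 5.39 to 6.97 and Slc25a45 from 7.98 to 8.74.

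The 5 genes below the filter were read near the bottom of the scale. Slc25a38, the glycine carrier of heme synthesis, ranged from 3.39 to 5.47 with 1 blank, and Slc25a48 from 3.67 to 5.15 with no blank. Slc25a32, a folate and FAD carrier, had 3 blanks, Slc25a33, a pyrimidine nucleotide carrier, 5 and Slc25a35 6. No dose comparison was made for them. Slc25a47 was not among the genes measured.

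Counts over the 32 tested genes were read against all probe sets tested in each comparison. A gene was called at a Benjamini-Hochberg adjusted p of up to 0.05 in limma over all probe sets, and groups were apart when their arrays did not overlap. At 30 mg/kg against vehicle 0 genes were called (background 0.0113% of probe sets) and 1 had an unadjusted p of up to 0.05 (background 4.66%), while the methods' t-test gave 0 before adjustment (background 3.5%) and 0 after it. Groups were apart upwards in 4 genes (12.5%, background 7.32%) and downwards in 2 (6.25%, background 9.28%), and the median difference was 0.06. Against vehicle at 100 mg/kg, 0 genes were called (background 0.0113%) and 2 had an unadjusted p of up to 0.05 (6.25%, background 18.0%), with 2 by the methods' t-test before adjustment (background 13.4%) and 0 after it. Groups were apart upwards in 3 (9.38%, background 11.4%) and downwards in 3 (9.38%, background 13.3%), with a median of 0.10. These shares were at or below the background except for the 4 genes that lay higher at 30 mg/kg. Without vehicle rat 1 the count called at 100 mg/kg was 3 (9.38%, background 12.5%), namely Slc25a4, Slc25a10 and Slc25a53.

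At 200 mg/kg against vehicle, the comparison the family was picked from, the call rule held for 1 of 32 genes (background 0.0226%), the Slc25a42 it was picked for, and 4 had an unadjusted p of up to 0.05 (12.5%, background 12.4%). Groups were apart upwards in 4 (background 12.3%) and downwards in 4 (background 12.9%). Nothing is read from these counts. Between 200 and 100 mg/kg the rule held again for Slc25a42 only (1 of 32, background 0.0226%), on the 200 mg/kg arrays it was picked from. There no second gene had an unadjusted p of up to 0.05 (background 6.06%), 5 were apart upwards (15.6%, background 14.0%) and 6 downwards (18.8%, background 12.8%). All 8 nucleotide and phosphate carriers had a higher mean at 200 than at 100 mg/kg, by 0.04 to 0.85, and none of these passed. Between 100 and 30 mg/kg 0 Slc25 genes were called by limma (background 0.559%). The methods' t-test gave 6 before adjustment (18.8%, background 22.7%) and 0 after it. Slc25a4, Slc25a39 and Slc25a23 had an unadjusted p of up to 0.05 (9.38%, background 19.2%). Groups were apart upwards in 4 genes (12.5%, background 23.8%) and downwards in 6 (18.8%, background 23.7%). The median size of the difference, without sign, was 0.13 for the Slc25 genes and 0.27 for all probe sets in this comparison, and 0.18 and 0.24 at 100 mg/kg against vehicle.

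**Figure D5:**
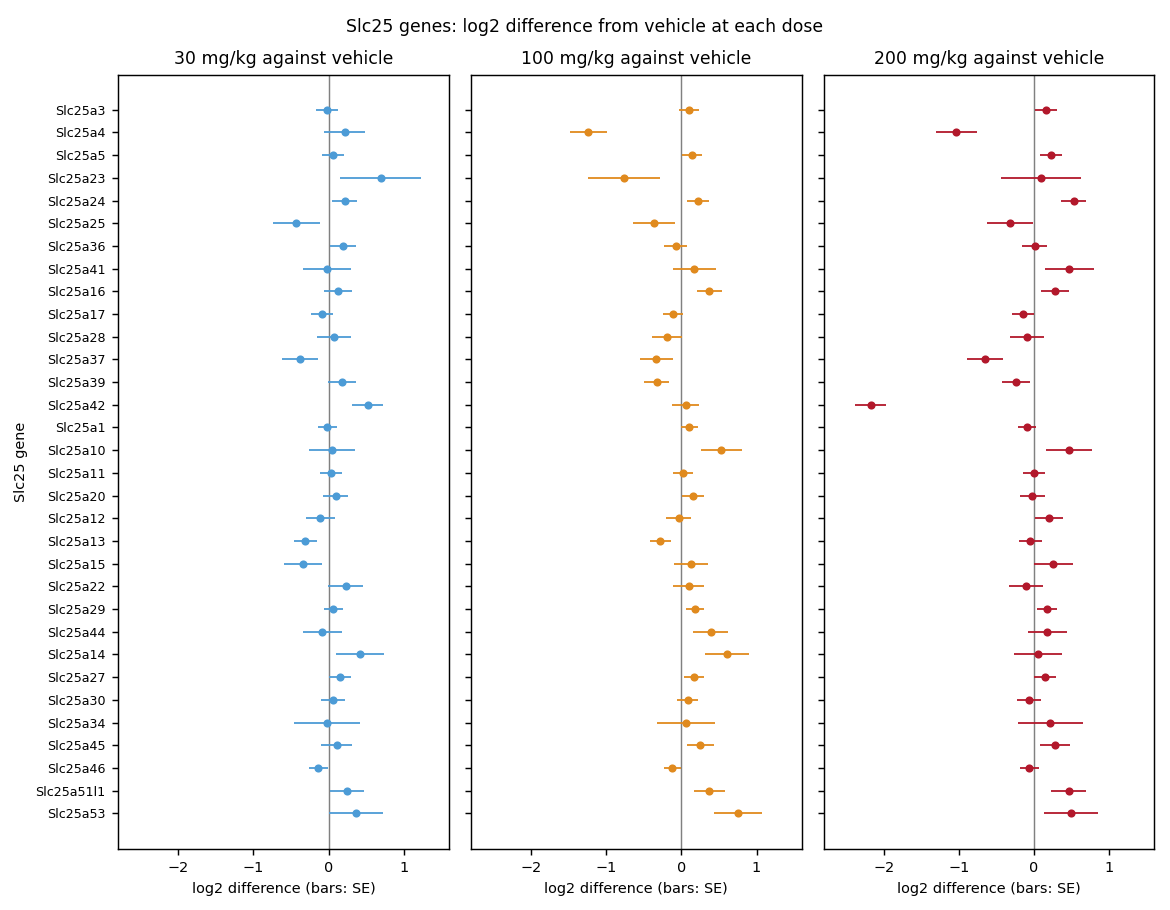
Log2 difference from vehicle of each tested Slc25 gene (points, bars are SE) at 30, 100 and 200 mg/kg. Most points lie within 0.5 of 0 (30, 27 and 28 of 32 genes), and those beyond -1 are Slc25a4 at 100 and 200 mg/kg and Slc25a42 at 200 mg/kg.

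Genes that work beside these carriers were counted in the same fit. Coenzyme A is the substrate of Slc25a42, and of 10 genes listed for its synthesis and precursor supply none was called at any dose. The 100 mg/kg group had 1 higher and 2 lower than vehicle at an unadjusted p of up to 0.05 (18.0% of all probe sets). The 1 higher was Slc5a6, a vitamin transporter and not an enzyme of the synthesis (0.46 ± 0.19 SE, adjusted p = 0.268). The 2 lower were Dcakd (-0.73 ± 0.25 SE, adjusted p = 0.219) and Ppcs (-0.75 ± 0.29 SE, adjusted p = 0.241). Ppcdc, which makes phosphopantetheine, differed between 200 and 100 mg/kg by -0.58 ± 0.16 (SE, adjusted p = 0.513). The median difference of the list was 0.04 at 30, -0.16 at 100 and -0.27 at 200 mg/kg against vehicle. Of 9 tested genes of the carnitine shuttle, which feeds Slc25a20, none was called in any comparison. None had an unadjusted p of up to 0.05 (4.66% to 19.2% of all probe sets, by comparison). Their medians were -0.0022, 0.21 and 0.06 at 30, 100 and 200 mg/kg against vehicle. Of 12 genes of the TIM22 import route, all 12 lay below vehicle in the mean at 100 mg/kg (median -0.27) and all 12 lay higher at 200 than at 100 mg/kg (median 0.22), comparisons that share the 100 mg/kg arrays. None was called, and 2 of 12 had an unadjusted p of up to 0.05 at 100 mg/kg against vehicle (18.0% of all probe sets). These were Tomm20 (-0.35 ± 0.13 SE, adjusted p = 0.234) and Timm29 (-0.34 ± 0.14 SE, adjusted p = 0.250).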

How the data were processed

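Total RNA from flash-frozen rat jejunum was hybridised to Affymetrix RAE230 arrays, 1 rat per array. The authors analysed the scans in Rosetta Resolver 7.2 with its error model, and the deposited table holds log10 intensities. The scaling between arrays is not given in the sources used here. Values were converted to log2, and blanks (10.9% to 11.3% of probe sets per array) stayed missing. For arrays, their number limits the precision. A second deposited table holds the authors' fold changes of treated rats and was not used. The platform annotation gave 1 gene symbol for 19952 probe sets, several for 428 and none for 9179, and all 37 gene identifiers were found in a RefSeq gene table (GRCr8).

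Probe sets in the lowest 40% by mean level were not tested, which left 17736 for the test with limma 3.58.1 in R 4.3.3. The model had 1 mean per group over all 10 arrays, moderated with default settings, and p-values were two-sided and adjusted by Benjamini-Hochberg across every probe set in a comparison. The rats were separate animals, so p-values measure the spread between rats. Their numbers were not used to pair them in the main fit (sensitivity to this is given with the other alternatives). The fit was tested on simulated data. Python 3.11.15 with pandas 2.3.3 made the tables, and matplotlib 3.10.9 the plots.

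The members and lists were chosen with earlier results of these data known. Values on every array are given for Slc25a42, called genes, the 3 brightest genes, Slc25a4, Slc25a5, Slc25a20 and, in each comparison, the 3 genes per direction with the smallest p whose groups did not overlap. Of the pathway lists, called genes and the 2 with the smallest p in a comparison are named. Alternatives covered the filter, blanks, normalization, array weights, arrays in the fit, the rat number, the methods' t-test, each array left out, all probe sets of a gene and, chosen after seeing the data, log2(intensity + 16).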

Additional observations from a re-analysis of the deposited data

How the results depend on the processing

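The count of Slc25 genes called at 30 mg/kg against vehicle was 0 under every alternative. At 100 mg/kg the count of 0 became 10 with array weights, a setting in which 6968 of 17708 probe sets passed and the weights stopped before converging, became 2 with the methods' t-test before adjustment, and lay between 0 and 3 with single arrays left out (3 without vehicle rat 1, with Slc25a10 and Slc25a53 beside Slc25a4). The counts at 200 mg/kg describe the choice of the family. Against vehicle the 1 called gene became 0 with no filter, with the lowest 60% left out (Slc25a42 is then not tested), with only the groups compared, with the replicate block and with the methods' t-test after adjustment, became 2 with array weights and with the t-test before adjustment, and ranged from 0 to 2 with single arrays left out (2 without vehicle rat 1, 0 without vehicle rat 2, 100 mg/kg rat 2 or 3, or any 30 or 200 mg/kg rat). Between 200 and 100 mg/kg the 1 called gene became 0 under the same filters, with only the groups compared, with the replicate block and with the adjusted t-test, became 4 before adjustment, and ranged from 0 to 1 (0 without 100 mg/kg rat 2 or 3, or any 30 or 200 mg/kg rat). Between 100 and 30 mg/kg the count of 0 became 1 with the lowest 60% left out, array weights, only the groups compared or log2(intensity + 16), became 6 with the t-test before adjustment, and ranged from 0 to 1 (1 without vehicle rat 1 or 3). The cause of these changes was not tested.

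Slc25a42 at 200 mg/kg kept its direction in all settings in which it was tested (-2.48 to -1.48 against vehicle, -2.39 to -1.53 against 100 mg/kg). Its difference from vehicle at 100 mg/kg reversed to -0.24 with array weights, -0.11 without vehicle rat 3 and -0.0036 without 100 mg/kg rat 1, and ranged from -0.11 to 0.23 with single arrays left out. The Slc25a4 difference at 30 mg/kg reversed to -0.092 without vehicle rat 1, and ranged from -0.092 to 0.40. The median over the genes turned to -0.0095 at 30 mg/kg without vehicle rat 3 and to -0.019 between 200 and 100 mg/kg without 200 mg/kg rat 2. Of 13 pairs of arrays with the same rat number, 4 had deviations that correlated above 0.1 (r from -0.31 to 0.24). Pairs with different numbers had r from -0.29 to 0.31. The deviations are from group means, which makes the 2 arrays of a small group mirror each other. These correlations therefore cannot decide whether the numbers pair the rats. For single genes and medians, 667 values under an alternative kept their direction and side of the threshold, 12 came to pass, 21 no longer passed, 10 medians moved and 4 values reversed. With the replicate block the Slc25a42 difference at 200 mg/kg was -2.29. Where an array left out leaves 1 in a group, that array is assumed to vary like the others. Groups of 2 and 3 arrays and dim signals limit what could be called.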

Other observations

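Of 16 tested genes of the TCA cycle, none was called in any comparison, and 14 of 16 lay above vehicle in the mean at 200 mg/kg (median 0.18), 8 of them with groups that did not overlap (12.3% of all probe sets were apart in this way). The 100 mg/kg means of 13 of 16 lay above vehicle (median 0.10), with Idh3b at 0.46 ± 0.16 (SE, adjusted p = 0.224) and Idh2 at -0.62 ± 0.24 (SE, adjusted p = 0.238). Of 11 tested genes of outer membrane channels and mitochondrial mass, none was called, and 10 of 11 lay below vehicle in the mean at 100 mg/kg (median -0.15). Tspo, an outer membrane cholesterol-binding protein, was below all vehicle arrays at 30 mg/kg (-0.41 ± 0.17 SE, adjusted p = 1) and at 200 mg/kg (-0.71). Of 4 tested Slc25 proteins with other symbols, none was called, and Ucp2, an uncoupling protein, differed from vehicle by 0.13 ± 0.13 (SE, adjusted p = 0.598) at 100 mg/kg.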
